A study of Mus musculus with 23 samples.

Results

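The immediate early genes Fos, Fosb, Jun, Junb, Jund, Egr1, Ier2, Atf3, Dusp1 and Zfp36 were followed across 23 libraries of fetal thymic epithelial cells (TECs), as 10 of the 50123 genes in the count table. These genes were chosen by a lower level in NICD libraries, so their difference between NICD and control is given as a description, with no test. That lower level held for part of them. Of the 9 genes that could be measured, 8 had a lower mean log2 (CPM + 1), where CPM is a gene's counts scaled to library size, in NICD than in E14.5 control PLET1+ TECs, although Egr1 came out higher in NICD when libraries were scaled to housekeeping genes, and Jun had a higher mean under every scaling tried. Every NICD library lay below every control library for 3 of them, Fosb, Junb and Dusp1, a pattern that 6.52% of the 19140 genes tested also showed. Jund had between 0 and 7 counts in each library and gave no usable level.

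Each library was made with Smart-seq2 from 100 cells sorted by flow cytometry from mouse embryos whose strain is labelled C57BL/6. TECs, the stromal cells that support T cell development, were divided by PLET1, a surface marker of immature TECs. Loss of Notch signalling was represented by Rbpj cKO embryos (Foxn1Cre RbpjFL/FL), which lack in TECs the DNA-binding partner of the Notch receptors, and their controls, labelled wild type, came from the same cross of Foxn1Cre;RbpjFL/+ and RbpjFL/FL parents, which leaves every offspring with at least 1 floxed allele. That cross gave 3 libraries each of control and Rbpj cKO cells from PLET1+ cells at E12.5 and from both PLET1+ and PLET1- cells at E14.5, taken from 2 litters on 2 days per stage. Gain of Notch signalling was represented by 5 libraries of E14.5 PLET1+ cells from Foxn1Cre Rosa26FL-STOP-FL-NICD-IRES-EGFP embryos, in which TECs express the active Notch1 intracellular domain. These came from 5 embryos of 1 litter that were sorted in another city from all other samples, so genotype and batch cannot be told apart for NICD, nor can stage and litter between E12.5 and E14.5. Cre is driven by Foxn1 in both models, which is active in TECs and also in some epithelial cells of the skin.

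Immediate early genes are switched on within minutes of a stimulus from transcription factors that are already present in the cell, without new protein synthesis, and their mRNAs are short-lived. Growth factors, cytokines and physical stress all act on them through MAP kinases, and the handling of a tissue during dissociation is a known stimulus. The products fall into transcription factors (the FOS and JUN families, which pair to form AP-1, with ATF3 as a further partner, and EGR1 and IER2) and feedback factors (DUSP1, a phosphatase that switches MAP kinases off, and ZFP36, also called tristetraprolin, which speeds the decay of AU-rich mRNAs). All libraries passed through enzymatic dissociation and sorting before lysis.

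The sequences upstream of 5 of the genes are shown because the results turn on them: Zfp36 passed the test between stages, Fosb, Junb and Dusp1 separated NICD from control libraries, and Fos was the most abundant. They are RefSeq sequences on GRCm38.p6, 5′ to 3′ on the gene's own strand, from within the 250 bases before the RefSeq start, left out where the count table's gene overlaps them apart from 30 bases at Zfp36. Capitals mark matches to a searched motif.
Fosb, chr7:19310052-19310295, minus strand: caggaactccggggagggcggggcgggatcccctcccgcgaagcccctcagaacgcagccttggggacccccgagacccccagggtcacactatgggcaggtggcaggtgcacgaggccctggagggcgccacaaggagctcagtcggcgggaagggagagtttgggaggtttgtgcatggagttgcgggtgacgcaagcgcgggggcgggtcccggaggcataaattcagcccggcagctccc
Junb, chr8:84978749-84978998, minus strand: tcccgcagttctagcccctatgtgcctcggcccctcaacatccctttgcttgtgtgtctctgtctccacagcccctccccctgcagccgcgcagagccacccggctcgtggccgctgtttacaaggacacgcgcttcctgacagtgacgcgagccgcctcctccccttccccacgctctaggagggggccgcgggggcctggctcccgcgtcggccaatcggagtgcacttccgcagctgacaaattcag
Dusp1, chr17:26508520-26508722, minus strand: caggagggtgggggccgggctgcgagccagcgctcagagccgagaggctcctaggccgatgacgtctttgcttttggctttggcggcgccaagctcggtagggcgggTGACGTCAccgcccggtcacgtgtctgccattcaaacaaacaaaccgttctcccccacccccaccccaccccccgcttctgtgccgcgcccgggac
Fos, chr12:85473640-85473889, plus strand: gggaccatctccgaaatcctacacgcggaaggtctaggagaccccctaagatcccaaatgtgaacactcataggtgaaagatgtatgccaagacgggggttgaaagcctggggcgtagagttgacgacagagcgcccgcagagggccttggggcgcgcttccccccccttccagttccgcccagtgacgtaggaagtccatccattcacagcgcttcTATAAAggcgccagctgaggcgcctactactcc
Zfp36, chr7:28379267-28379296, minus strand: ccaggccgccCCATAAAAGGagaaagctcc
Searching both strands of the 250 bases found the CRE (TGACGTCA, the cAMP response element) in Dusp1 from 143 to 136 bases before the start, the CArG box (the site of serum response factor) in Zfp36 from 58 to 49 bases before it, and the TATA box (TATAAA) in Fos from 33 to 28 bases before it. These motifs occurred in 1.55%, 1.47% and 12.4% of 32851 promoters respectively. Neither the AP-1 site (TGACTCA, in 4.46% of promoters) nor the EGR site (GCGTGGGCG, in 0.536%) lay in the window of any of the 8 genes that had an entry. A match is a run of letters only.

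Counts per library ranged from 20053241 to 92699969, and 16229 to 20350 genes had a count. The targeted gene Rbpj was at 18.4 to 20.4 CPM in E14.5 control PLET1+ TECs and at 0.061 to 10.4 CPM in Rbpj cKO ones, while at E12.5 the groups overlapped (15.1 to 37.9 against 2.09 to 16.2 CPM). The summed CPM of 8 epithelial markers lay between 2940.5 and 11275 in each group, whereas endothelial and erythroid markers summed to at most 20.5 and 5.86 CPM. T lineage and leukocyte markers summed to 6.89 to 58.8 CPM in NICD and 17.5 to 24.8 CPM in E14.5 control PLET1+ libraries. Mesenchymal markers were also uneven: their sum was 2.37 to 24.4 CPM in E14.5 control PLET1+, 23.2 to 426 in NICD and up to 1161 CPM in E14.5 control PLET1- libraries. Their part in the results below was not tested. No difference in cell number per type could be told from a difference in RNA per cell, since each library pools its cells.

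Among the measured members, Fos had the most abundant mRNA per length of transcript. In E14.5 control PLET1+ TECs the mean level per kilobase of exon was 719 CPM for Fos, 206 for Ier2, 181 for Egr1, 139 for Zfp36, 101 for Atf3, 94.6 for Junb, 71.3 for Dusp1, 42.0 for Jun and 20.6 for Fosb. In NICD TECs the order was Fos at 393 CPM per kilobase, Egr1 at 157, Ier2 at 129.6, Zfp36 at 81.2, Jun at 71.6, Atf3 at 52.7, Dusp1 at 35.8, Junb at 23.2 and Fosb at 2.88. The 10 genes together took between 0.102% and 0.91% of a library's counts, and Fos alone made up 24.7% to 43.9% of their sum.

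Within the E14.5 Rbpj cross the summed level of the immediate early genes fell into 2 ranges that were each found in controls and Rbpj cKO alike, and all E12.5 and NICD libraries lay below the upper one. In replicates 2 and 3 of the 4 E14.5 groups of the Rbpj cross (8 libraries) the 10 genes summed to between 3915 and 7800 CPM. In replicate 1 of the same groups (4 libraries) they summed to between 2214 and 2499 CPM, in the 6 E12.5 libraries to between 1321 and 3390 CPM, and in the 5 NICD libraries to between 1926 and 3421 CPM. Mitochondrial genes took 4.21% to 5.36% of counts in the first set, and 7.8% to 9.54%, 6.8% to 14.56% and 9.6% to 12.75% in the other three. The higher sums and the lower mitochondrial shares were thus found in the same 8 libraries; the part of RNA quality or handling in this was not tested.

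**Figure D1:**
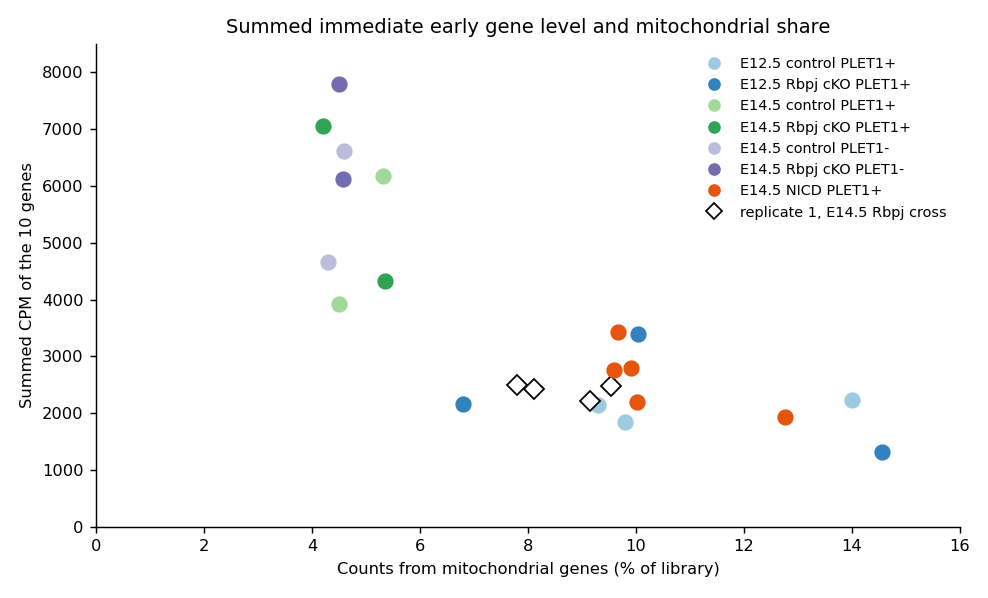
Summed CPM of the 10 immediate early genes (vertical axis) against the percent of counts from mitochondrial genes (horizontal axis), 1 point per library, coloured by group, with open diamonds for replicate 1 of the E14.5 Rbpj cross groups. The 8 libraries of replicates 2 and 3 of that cross lie at 3915 CPM or more and at 5.36% or less, and all others at 3421 CPM or less and 6.8% or more.

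Replicate 1 was the lowest library for the same 7 genes (Fos, Jun, Junb, Egr1, Ier2, Atf3 and Zfp36) in each of the 4 E14.5 groups of the Rbpj cross, and for neither Fosb nor Dusp1 in any. Over all genes tested it was the lowest in 34.5% to 46.8%, depending on the group. The mean of replicates 2 and 3 was higher than replicate 1 by a factor of 2.19 to 3.28 for Fos, 3.92 to 7.65 for Junb and 1.4 to 2.24 for Ier2. For Dusp1 the factor was 0.762 to 0.93. Replicate 1 carries the same batch label as replicate 2, so the batch terms of the fit did not absorb this spread.

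Fos (chr12:85473890-85477273, plus strand), a subunit of AP-1, was at 594, 767 and 666 CPM in E12.5 controls and at 738, 1114 and 326 CPM in E12.5 Rbpj cKO TECs. At E14.5 it was at 942, 2707 and 1424 CPM in control PLET1+ and at 949, 3021 and 1571 CPM in Rbpj cKO PLET1+ TECs. The PLET1- libraries held 833, 1918 and 2634 CPM in controls and 763, 3022 and 1979.5 CPM in Rbpj cKO TECs. NICD libraries were at 948, 595, 1083, 831 and 1166 CPM. They overlapped the E12.5 libraries and replicate 1 of the E14.5 controls and lay below their replicates 2 and 3.

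Fosb (chr7:19302696-19310051, minus strand), a FOS relative that also forms AP-1, stood apart in NICD. Its 5 NICD libraries were at 29.9, 7.14, 22.9, 23.1 and 6.95 CPM, against 123, 158 and 104 CPM in E14.5 control PLET1+ TECs. The lowest of all 18 other libraries was at 96.4 CPM, so NICD lay below every one of them, as it did for 0.366% of genes tested. Group means outside NICD ran from 108 ± 14.02 CPM (SD, n = 3) in E14.5 Rbpj cKO PLET1+ to 212 ± 83.0 CPM in E12.5 Rbpj cKO TECs, and the libraries of groups next to each other in that order overlapped. The NICD mean was 17.99 ± 10.4 CPM (SD, n = 5), a ratio of means of 7.14 between controls and NICD. Since Fosb did not follow the low replicate 1, the log2 difference from controls was -2.93 against replicate 1 alone and -2.99 against replicates 2 and 3.

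The ratio of Fosb to Fos reads in the same library, which no scaling affects, differed between stages as well as in NICD. There were 17.2 to 43.8 Fosb reads per 100 Fos reads at E12.5, 4.09 to 16.7 in the E14.5 Rbpj cross and 0.596 to 3.15 in NICD. The 3 ranges did not overlap between E12.5 and E14.5, nor between either and NICD, though the first 2 nearly met (17.2 and 16.7). Between stages in PLET1+ controls, the fitted log2 fold change was -0.26 for Fosb (SE 0.45) and 1.29 for Fos (SE 0.55). How often other pairs of genes separate in this way was not counted.

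Junb (chr8:84974484-84978718, minus strand), a JUN family member that often restrains JUN itself, was at 16.6, 18.5 and 94.6 CPM in E12.5 controls and 12, 61.9 and 4.13 CPM in E12.5 Rbpj cKO TECs. In E14.5 control PLET1+ TECs it was at 73.9, 345 and 234 CPM, and in Rbpj cKO ones at 43.5, 405 and 260.5 CPM. NICD libraries lay within a narrow range at 63.7, 50.7, 62.1, 35.3 and 55.4 CPM. All of these were below the lowest control, replicate 1, though by little: the log2 difference was -1.78 against all 3 controls, -0.49 against replicate 1 and -2.42 against the other two. They overlapped the E12.5 libraries and replicate 1 of E14.5 Rbpj cKO PLET1+ TECs. A stretch of 173 exon bases is shared with Prdx2 on the opposite strand, and counting did not use strand.

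Jun (chr4:95049034-95052222, minus strand), the core JUN family subunit of AP-1, went the other way. It was at 285, 172, 382, 179 and 124 CPM in NICD and at 51.9, 245 and 105 CPM in E14.5 control PLET1+ TECs, a log2 difference of 0.93 in means with overlapping libraries. Against replicate 1 alone the difference was 2, and against replicates 2 and 3 it was 0.39. Its highest value was 585 CPM, in replicate 2 of E14.5 Rbpj cKO PLET1- TECs. Within a library, Junb reads per 100 Jun reads were 3.83 to 70.7 at E12.5, 59.4 to 253 in the E14.5 Rbpj cross and 16.2 to 44.6 in NICD, so that NICD lay below all 12 other E14.5 libraries. This ratio pairs a member that was lower in NICD with the only 1 that was higher. The share of other gene pairs that separate in this way was not counted. Jun shares 232 exon bases with the antisense gene Junos, which had at most 201 counts.

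Jund (chr8:70698949-70700616, plus strand), the JUN family member usually present without stimulation, shares 877 of its 1668 exon bases with Gm11175 on the opposite strand. Reads in a shared stretch were left unassigned by the authors' counting, and Gm11175 had 0 counts in every library. Levels of Jund are therefore not interpreted, and it did not pass the filter on low counts, as the other 9 did.

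Atf3 (chr1:191170296-191218039, minus strand), a stress-induced partner and repressor, was at 70.4, 243 and 339 CPM in control PLET1+ and 57.1, 92.9 and 105 CPM in control PLET1- TECs. Of the NICD libraries, 4 lay at 74.2 to 108 CPM and replicate 3 at 226 CPM. The NICD libraries all fell within the range of the controls, with a log2 difference in means of -0.80 that turned to 0.54 against replicate 1 alone.

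Egr1 (chr18:34859823-34864984, plus strand), a zinc finger factor induced through serum response factor, differed least between NICD and control. NICD libraries were at 704, 559, 887, 591 and 786 CPM and E14.5 control PLET1+ libraries at 517, 1163 and 749.7 CPM. All 5 NICD values lay inside the control range, and the log2 difference in means of -0.14 became 0.20 under housekeeping scaling. Ier2 (chr8:84661331-84662852, minus strand), a small nuclear regulator, was at 242, 134, 273, 195 and 143 CPM in NICD and at 248, 352 and 339 CPM in those controls. For Ier2, 4 of the 5 NICD libraries lay below the lowest control, and the log2 difference was -0.70.

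Dusp1 (chr17:26505590-26508519, minus strand) separated the groups as Fosb and Junb did. It was at 212, 192 and 173 CPM in E14.5 control PLET1+ TECs and at 139.6, 41.1, 102, 123 and 76.7 CPM in NICD, with no overlap. The log2 difference was -1.10, and was similar against replicate 1 (-1.24) and against replicates 2 and 3 (-1.03). Libraries of other groups lay within the NICD range of Dusp1, among them E12.5 control replicate 3 at 121 CPM, E14.5 control PLET1- replicate 2 at 134 CPM, and replicate 3 of Rbpj cKO at E12.5 (67.5 CPM), in E14.5 PLET1+ (85.3 CPM) and in E14.5 PLET1- TECs (113 CPM).

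Zfp36 (chr7:28376784-28380253, minus strand) was lowest at E12.5, at 34.0, 61.9 and 92.6 CPM in controls and 66.9, 192 and 94.8 CPM in Rbpj cKO TECs. At E14.5 it was at 237, 762 and 448 CPM in control PLET1+, 177, 889 and 678 CPM in Rbpj cKO PLET1+ and 373, 742 and 1092 CPM in control PLET1- TECs. NICD libraries were at 295, 289, 384, 153 and 289 CPM, above every E12.5 library except replicate 2 of Rbpj cKO, which exceeded the lowest NICD library, and overlapping the E14.5 controls. The log2 difference between NICD and control was -0.68, and turned to 0.19 against replicate 1 alone.

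**Figure D2:**
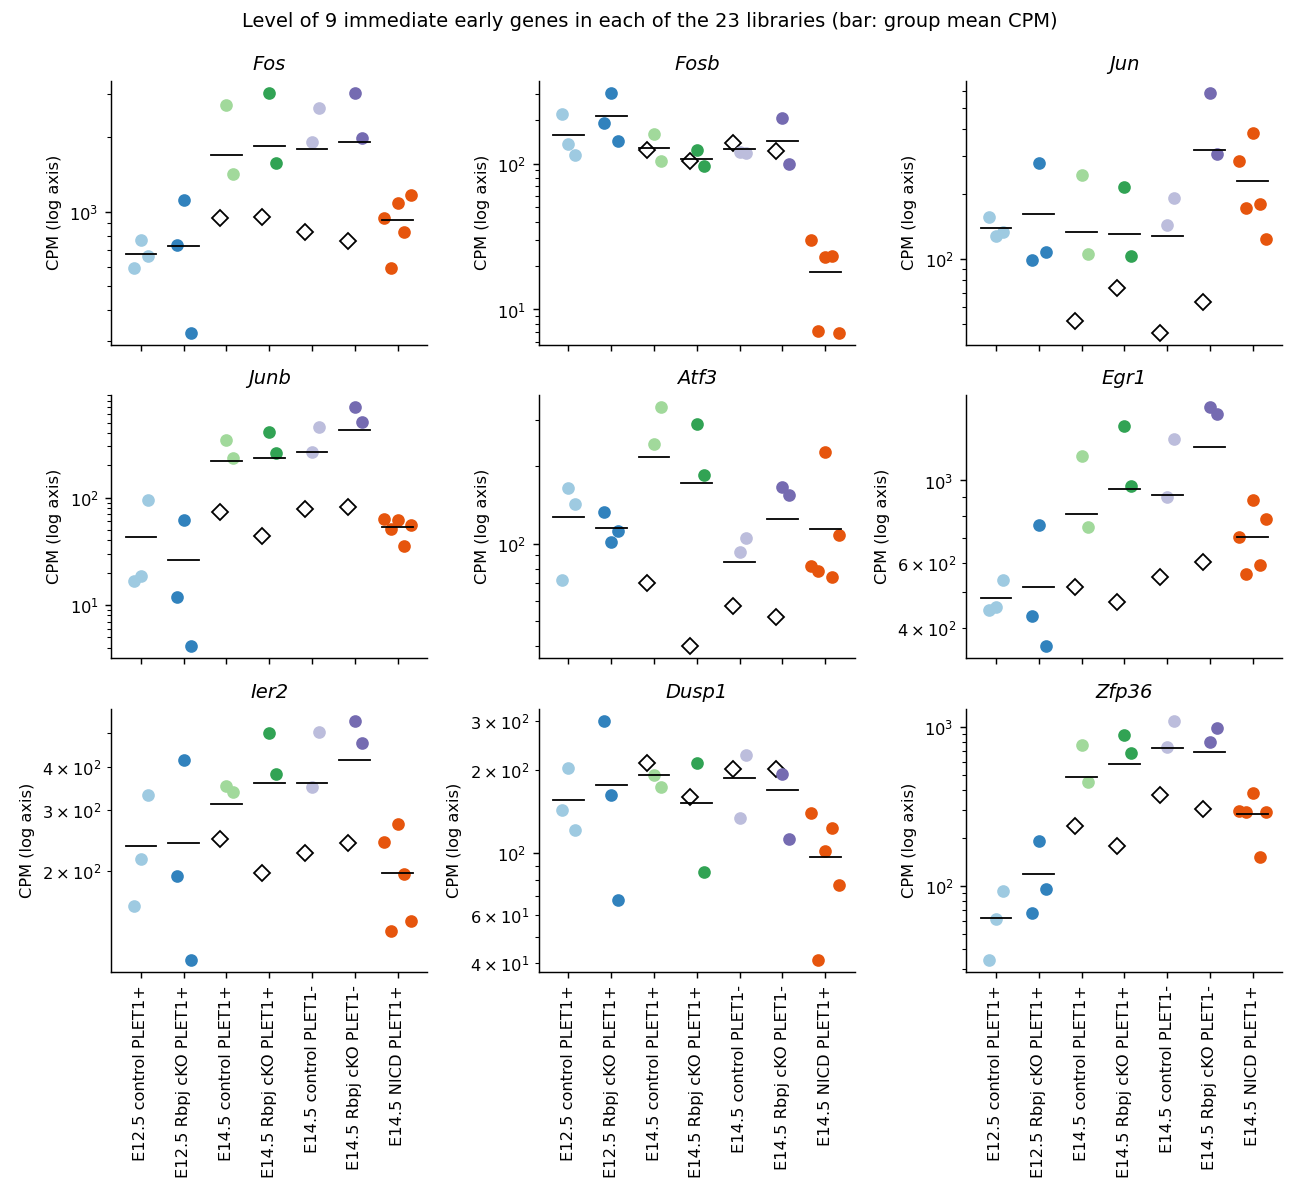
CPM (log axis) of the 9 measured immediate early genes in each library, 1 panel per gene and 1 column per group, with a bar at the group mean and open diamonds for replicate 1 of the E14.5 Rbpj cross groups. Fosb in NICD (6.95 to 29.9 CPM) lies below every other library, the diamonds are the lowest E14.5 points of their group for 7 genes, and Zfp36 rises from 34.0 to 92.6 CPM in E12.5 controls to 237 to 762 CPM in E14.5 ones.

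Over the 9 measured genes the median log2 difference between NICD and E14.5 control PLET1+ TECs was -0.77, and that over all genes tested was -0.10. As a description of the background, 0.684% of genes were called between NICD and control in the fit, at an adjusted p of at most 0.05 by edgeR's quasi-likelihood test, 6.52% had every NICD library below every control and 5.22% had every one above. No member lay wholly above. Against control replicate 1 alone the median over the 9 was -0.06, and 4 of the differences (Jun, Egr1, Atf3 and Zfp36) were above 0, and against replicates 2 and 3 Jun was again the only such gene. Scaling to housekeeping genes changed the library factors so that log2 levels in NICD rose by 0.34 relative to control.

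**Figure D3:**
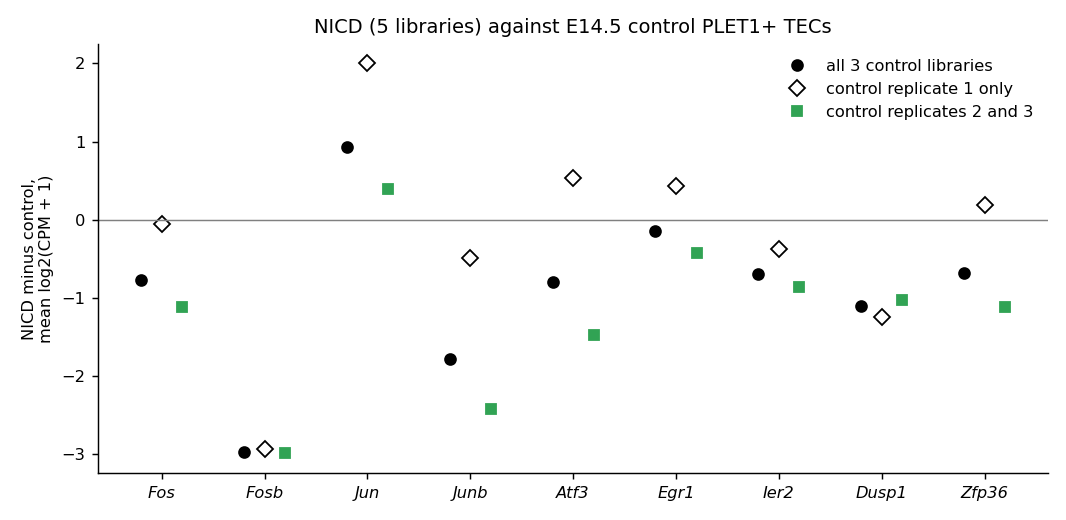
Difference between NICD (mean of 5 libraries) and E14.5 control PLET1+ TECs in log2 (CPM + 1) for the 9 measured genes, taken against all 3 control libraries (filled circles), replicate 1 alone (open diamonds) or replicates 2 and 3 (squares). Fosb (-2.99 to -2.93) and Dusp1 (-1.24 to -1.03) barely depend on the control library, whereas Zfp36, Atf3 and Egr1 cross 0.

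The comparisons that follow are other contrasts than the one that chose the genes. The stage, PLET1 and E14.5 PLET1+ Rbpj comparisons nevertheless share the E14.5 control PLET1+ libraries with it, and a choice of genes lower in NICD favours genes that are high in those 3 libraries. The first asks whether the members differed between stages in PLET1+ control TECs. One of the 9 passed the test: Zfp36 rose from E12.5 to E14.5 by 3.01 on the log2 scale (SE 0.64, edgeR adjusted p = 0.0263), or 8.06-fold, with no overlap between the libraries. This is the direction that the shared controls favour. The E14.5 control PLET1- libraries were at 373, 742 and 1092 CPM, also above the E12.5 controls. These PLET1- libraries are no arm of the NICD contrast used here, but the choice of genes names no reference group, so they may have entered it. They come from the same E14.5 litters as the PLET1+ controls, so they do not separate stage from litter. Among all genes tested 0.967% were called, 159 higher and 26 lower at E14.5. The call was lost with an edgeR fit of only these groups (adjusted p = 0.132), with housekeeping scaling (adjusted p = 0.132), with limma-voom (adjusted p = 0.105), and when E12.5 replicate 1, 2 or 3 or E14.5 replicate 2 was left out (adjusted p from 0.0531 to 0.168). With the mitochondrial share added to the fit the difference was 1.83 (adjusted p = 0.387).

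Several other members had fitted differences above 1 standard error between the stages without passing the test. The log2 fold change was 1.29 for Fos (SE 0.55, edgeR adjusted p = 0.343), whose 3 E14.5 libraries all lay above the 3 E12.5 ones, and 2.57 for Junb (SE 1.15, edgeR adjusted p = 0.362), whose libraries overlapped. It was 0.76 for Egr1 (SE 0.43) and 0.71 for Atf3 (SE 0.63). Fosb, Jun, Ier2 and Dusp1 lay between -0.26 and 0.38. With the mitochondrial share in the fit, the values were -0.16 for Fos, 0.55 for Junb, -0.26 for Egr1 and -1.20 for Atf3. The median over the 9 was 0.71, against 0.19 over all genes.

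Loss of Rbpj called none of the members in any of 3 settings by edgeR, none at an unadjusted p under 0.05, and none by DESeq2 or limma-voom. In E14.5 PLET1+ TECs the log2 fold changes ran from -0.39 for Dusp1 (SE 0.42) to 0.23 for Zfp36 (SE 0.59), with standard errors of up to 0.97, that of Junb. The median was 0.11, which became -0.59 without Rbpj cKO replicate 2 and 0.70 without control replicate 2, and 0% of all genes tested were called by edgeR (395 at an unadjusted p under 0.05, 100 by DESeq2 and 0 by limma-voom). Within batches the medians were -0.10 over replicates 1 and 2, and 0.14 for replicate 3.

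In E14.5 PLET1- TECs the largest fitted difference was that of Jun, at 1.33 (SE 0.74, edgeR adjusted p = 1), which became 0.37 without Rbpj cKO replicate 2, 0.87 without control replicate 1 and 1.88 without control replicate 3. Jun was at 63.4, 585 and 307 CPM in Rbpj cKO and at 45.8, 143 and 192 CPM in control PLET1- TECs, and the libraries overlapped. The other 8 members lay between -0.22 for Dusp1 and 0.79 for Junb, and 0% of all genes were called (447 at an unadjusted p under 0.05, 160 by DESeq2 and 0 by limma-voom). Within batches the medians were 0.35 over replicates 1 and 2, and -0.10 for replicate 3.

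At E12.5 the largest fitted difference between Rbpj cKO and control TECs was that of Zfp36, at 0.97 (SE 0.61, edgeR adjusted p = 1), and the others lay between -0.32 for Junb and 0.43 for Fosb. Of all genes 0.0261% were called, 5 in number. Within batches the member medians had opposite signs, 0.43 over replicates 1 and 2 and -0.60 for replicate 3, the cKO library in which Fos (326 CPM), Junb (4.13 CPM) and Dusp1 (67.5 CPM) were each at their lowest outside NICD. The effect of Rbpj loss on the members was also compared between E14.5 PLET1+ and PLET1- TECs and between E14.5 and E12.5 PLET1+ TECs, and in both interactions 0% of genes, and none of the members, were called by edgeR. There were 502 and 603 genes at an unadjusted p under 0.05, none of them a member, and DESeq2 and limma-voom called no member either.

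PLET1+ and PLET1- control TECs at E14.5 had no member called, with 0% of all genes called by edgeR (550 at an unadjusted p under 0.05, 153 by DESeq2 and 1 by limma-voom). Atf3 came closest, with a log2 fold change of 1.29 (SE 0.64, edgeR adjusted p = 1) and libraries that overlapped at replicate 1. The others lay between -0.52 for Zfp36 and 0.08 for Jun. Within batches the medians were 0.15 over replicates 1 and 2, and -0.78 for replicate 3. Without the 4 replicate 1 libraries, a choice made after seeing the data, the members called were again 0 in the Rbpj comparisons, 0 between PLET1+ and PLET1-, and 1 between stages (Zfp36, 3.29, adjusted p = 0.00575).

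**Figure D4:**
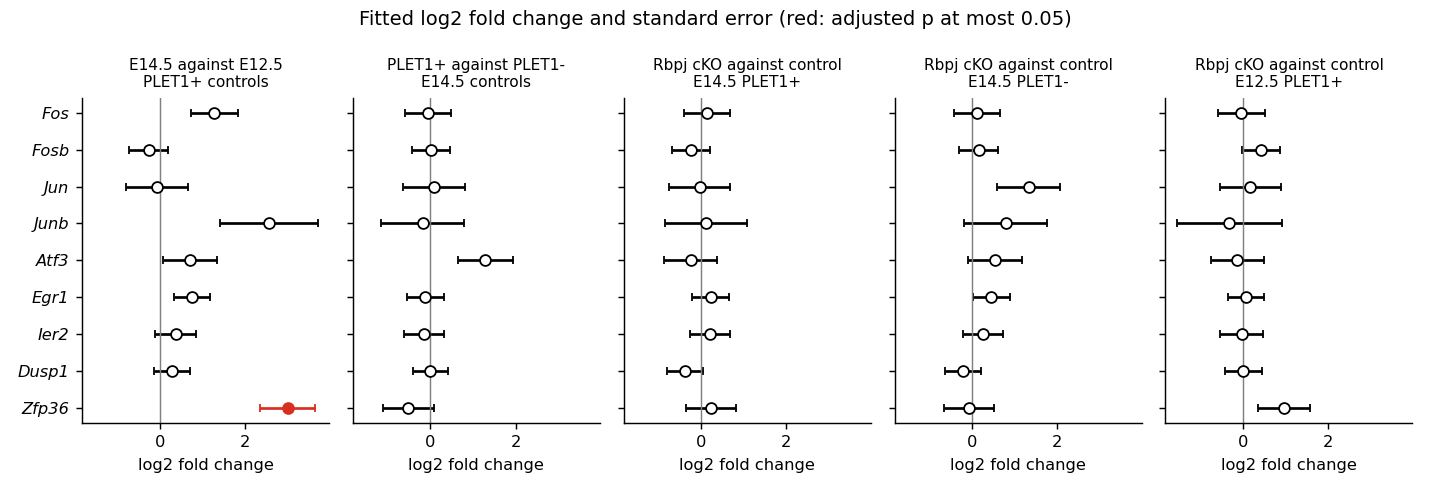
Fitted log2 fold change (points) with its standard error (bars) for the 9 measured genes in the 5 comparisons other than NICD against control, red where the edgeR adjusted p was at most 0.05. Zfp36 between stages (3.01) is the only red point, and the Rbpj cKO values lie between -0.39 and 1.33.

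The spread among libraries within groups was shared by most of the members. Over the 18 libraries outside NICD, as deviations from group means on the log2 scale, 32 of 36 pairs of members had a correlation above 0, with a median Pearson r of 0.71 and a range of -0.20 to 0.97. Against the mean of the other members, r was 0.98 for Egr1, 0.96 for Fos, 0.92 for Junb and Ier2, 0.87 for Jun and Zfp36, 0.71 for Atf3, 0.31 for Fosb and 0.04 for Dusp1. Libraries with the same batch label may share a litter or sort, depth differs among libraries, and the values are a description. The same figures were not computed for pairs of other genes, so whether this spread is particular to the members was not tested. The 5 genes outside the list that followed the mean of the members most closely were Ormdl3 (r = 0.97), Fkbp8 (0.95), Elmo2 (0.94), Puf60 (0.94) and Mfge8 (0.93). They are the highest values of a search over the 19140 genes tested, and a shared control of these genes was not tested. Ormdl3 was low, at 0.0566 to 17.2 CPM in the 18 libraries.

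A further 51 immediate early genes, of which 50 were tested, comprised 9 AP-1 and ATF partners, 14 other transcription factors, 16 feedback and decay factors and 12 secreted and other effectors. Between stages, 2 of the 50 (4%, against 0.967% of all genes) passed the edgeR test, both higher at E14.5. That count ran from 0 to 8 over 10 alternative settings, and from 1 to 3 with 1 library left out. Nfkbia, the NF-κB inhibitor that is itself an NF-κB target, rose by 1.81 on the log2 scale (SE 0.23, adjusted p = 0.000332), from 219, 249.7 and 132 CPM to 728, 598 and 721 CPM. Ier3, an early gene linked to cell survival, rose by 5.32 (SE 1.17, adjusted p = 0.0339), from 0.25, 6.79 and 0.0186 CPM to 49.5, 66.0 and 60.8 CPM, a call lost when any library but E12.5 replicate 2 was left out (adjusted p from 0.0605 to 0.1). Over the 10 settings Nfkbia lost its call in 1 and Ier3 in 5. None of the 50 was called in any Rbpj comparison or between PLET1+ and PLET1- controls by edgeR, with at most 1 at an unadjusted p under 0.05 in each.

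Between NICD and E14.5 control PLET1+ TECs, 1 of the 50 passed the edgeR test (2%, against 0.684% of all genes). Here the count ran from 0 to 8 over 10 alternative settings, and from 1 to 3 with 1 library left out. Klf2, a shear- and MAP kinase-responsive factor, had 0 counts in all 5 NICD libraries and stood at 4.07, 1.31 and 2.94 CPM in controls, at least 65.9-fold higher when 3 counts per library are taken as the floor (edgeR adjusted p = 0.00316). Its call was lost in 1 of the 10 settings. Of the 50, 15 were fitted higher and 35 lower in NICD, with a median log2 fold change of -0.42, against 0.04 over all genes. By class the median was -1.02 for the other transcription factors, -0.52 for AP-1 and ATF partners, -0.51 for secreted effectors and -0.08 for feedback and decay factors. The 14 upstream kinases and factors, which include MAP kinases and serum response factor, had a median of 0.19 and none was called.

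Heat shock genes are a second class that responds to stress. All 10 were fitted higher in NICD, with a median log2 fold change of 1.36, and 4 passed the edgeR test, as did 0.684% of all genes. The number called ran from 2 to 10 over 10 alternative settings, and from 2 to 5 with 1 library left out. Hspa1a, the inducible HSP70, was at 521, 468, 693, 591 and 339.5 CPM in NICD and at 6.44, 13.2 and 13.1 CPM in controls, a log2 fold change of 5.56 (SE 0.51, adjusted p = 8.01e-06). Its near-identical copy Hspa1b gave 7.21 (SE 0.87, adjusted p = 0.000256), and the split of reads between the copies is uncertain. Hsph1 rose by 1.54 (SE 0.27, adjusted p = 0.0106) and Hsp90aa1 by 1.18 (SE 0.22, adjusted p = 0.017), and as calls Hsph1 was lost without control replicate 1 or 2 (adjusted p of 0.0631 and 0.104) and Hsp90aa1 without any of the 3 (0.064 to 0.126). For 9 of the 10, every NICD library lay above every control, as for 5.22% of all genes. In Rbpj cKO E14.5 PLET1+ TECs none was called by edgeR and none had an unadjusted p under 0.05, with fitted values from -0.42 to 0.05. What these genes and the members share in NICD was not tested, since batch and genotype cannot be told apart there.

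**Figure D5:**
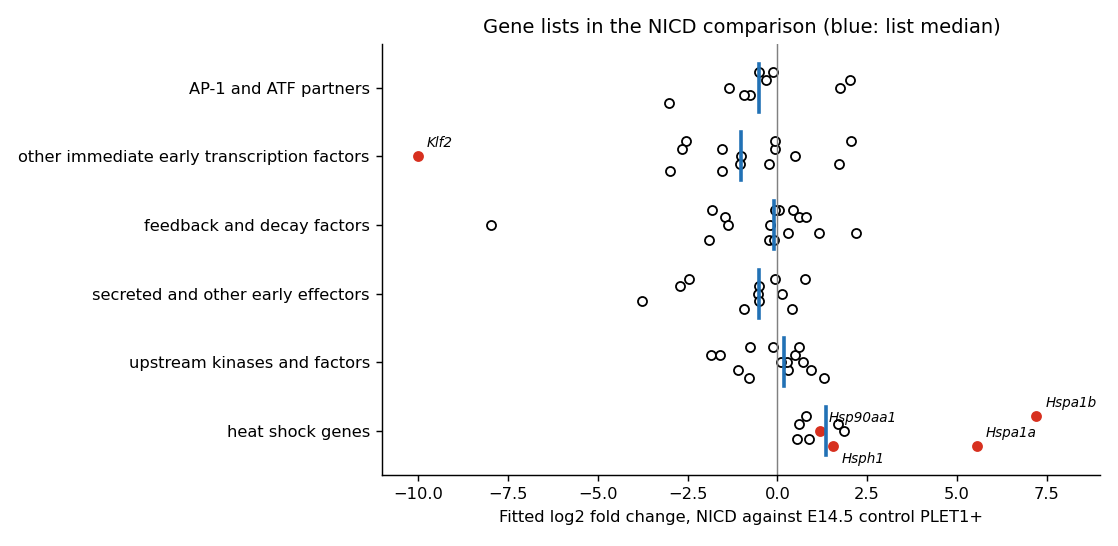
Fitted log2 fold change between NICD and E14.5 control PLET1+ TECs for 5 lists of immediate early and upstream genes and for heat shock genes, 1 point per gene, with the list median as a blue line and genes past an edgeR adjusted p of 0.05 in red and named. Heat shock genes lie at 0.56 to 7.21, the medians of the 4 immediate early lists lie between -1.02 and -0.08, and the fitted value of Klf2 rests on 0 counts in NICD.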

How the data were processed

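RNA was measured in 23 libraries, which were grouped by their deposited labels. The authors trimmed the paired reads with Trimmomatic 0.32, aligned them with STAR 2.5.1a to GRCm38 and assigned them to GENCODE vM12 genes with featureCounts (1.5.1 per the labels, 1.5.0-p3 per the file header), without strand and without reads that map to several places or genes. The deposited counts are whole reads per gene, not normalized. Depth was 20053241 to 92699969 counts per library, so that 3 counts, taken as the floor, are well under 1 CPM; this covers counting error only.

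CPM used TMM factors (edgeR 4.0.16 in R 4.3.3) over the 19140 genes that passed filterByExpr. A quasi-likelihood fit of all 23 libraries held 7 group means and 2 batch terms, and two-sided p-values were adjusted by the Benjamini-Hochberg method over all genes tested, with genes at an adjusted p of at most 0.05 called. The SE is the log2 fold change divided by the square root of F. Levels were averaged as log2 (CPM + 1). The fit was tested on simulated data, where the changed genes it called had the right direction but most of the changed genes were missed. A gene that is not called may therefore still differ.

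The members, gene lists and tests were chosen with earlier results of these data known. All 10 members are named, as are listed genes called over all genes (at most 4 per list and comparison) and the 5 genes that followed the members most closely. Alternatives were DESeq2 1.42.0, limma-voom (limma 3.58.1), RLE factors, scaling to housekeeping genes, no filter, no batch terms, a replicate block, only the groups compared, and each library left out. Replicates are separate samples per the labels, and p-values measure the spread between them. No 2 libraries were identical. Same-numbered libraries of the E14.5 Rbpj cross deviated together (r from 0.16 to 0.37 over genes). Between PLET1+ and PLET1- controls these r (0.17 to 0.31) exceeded those of differently numbered libraries (at most 0.09). Between Rbpj cKO and control, differently numbered libraries reached 0.20 in PLET1+ and 0.16 in PLET1- TECs, so pairing by number is not shown there. The main fit used no pairing, and the replicate block did.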

Additional observations from a re-analysis of the deposited data

Results flagged for a closer look

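Atf3 in NICD PLET1+ TECs had 1 library far from the others: replicate 3 was at 225.6 CPM, whereas the other 4 lay between 74.2 and 108 CPM. The 9 measured members were tested for such a library in the NICD group, the only group with more than 3 libraries. The test set the gap to the next library against the range, on CPM, and was not run on the log2 scale. Atf3 was the single member marked, and chance alone marks about 1 in 20 of the members tested. Without that library the log2 difference between NICD and control was -1.08 in place of -0.80.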

How the results depend on the processing

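No member was called in any alternative of the Rbpj or PLET1 comparisons or the interactions. The median NICD difference of the members stayed between -1.11 and -0.43, and between -1.11 and -0.58 with 1 library left out, except that it was -0.06 against control replicate 1 alone, a reference chosen after seeing the data. Of 45 member fold changes in the other comparisons, 12 kept their sign in every alternative. Through the library factors, housekeeping scaling shifted the log2 difference between groups by 0.34 for NICD, -0.42 for E12.5 Rbpj cKO and -0.13 between stages. The number of members called between stages was 0 with limma-voom, housekeeping scaling, only the groups compared or the mitochondrial share as a covariate, 3 with no filter (adding Fos and Junb), and 0 to 1 with 1 library left out. With the mitochondrial share, an alternative chosen after seeing the data as was leaving out the E14.5 replicate 1 libraries, the stage difference turned to -0.16 for Fos, -0.26 for Egr1, -1.20 for Atf3, -0.38 for Ier2 and -0.15 for Dusp1, Jun went from -0.06 to -1.80, and the median over the members went from 0.71 to -0.26; the cause was not tested.

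Genes called in all depended more on the settings. DESeq2 called 100 (E14.5 PLET1+ cKO), 160 (PLET1- cKO), 318 (E12.5 cKO), 1291 (stage), 153 (PLET1) and 1236 (NICD), and no filter gave 10, 15, 52, 519, 16 and 677. limma-voom called 0 at E12.5, 448 between stages, 1 for PLET1 and 998 for NICD. At E12.5 the 5 calls became 0 with housekeeping scaling, no batch terms, only the groups compared or replicate 1 left out, 2 with the replicate block, and 0 to 6 with 1 library left out. The 185 stage calls became 15 with only the groups compared, 285 without replicate 1, 79 with the mitochondrial share and 93 to 143 with 1 library left out. The 131 NICD calls became 413 with housekeeping scaling, 17 with only the groups compared, 208 without replicate 1, 34 with the mitochondrial share and 34 to 171 with 1 library left out. The replicate block changed no call of a member. For the stage comparison it left out the batch terms and tied same-numbered libraries of different litters. Those libraries did not deviate together (r from -0.07 to 0.02 over genes). Its value for Zfp36 between stages, 2.91 (edgeR adjusted p = 0.00172), therefore adds no support to the call.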
